A study of Mus musculus with 4 samples.

Results

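The Prdm16 interval is a stretch of 1 Mb on mouse chromosome 4, from 154 to 155 Mb in the build mm10, in which open chromatin regions lay closely packed in the limb at E10.5, a stage named in days of embryonic development. Its peaks were chosen by position, as every peak of the deposited lists that overlapped the interval. They number 217 of the 99427 peaks of the E10.5 list and 51 of the 37548 peaks of the E11.5 list. The interval holds Prdm16, Actrt2 and Arhgef16, and these genes were picked from the same lists for their many E10.5 peaks without an E11.5 counterpart. The density of E10.5 peaks and the missing E11.5 overlap are therefore given as descriptions, without a test.

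The samples are wild-type embryonic mouse limbs, dissociated to single cells and assayed for open chromatin by ATAC-seq. In this assay the Tn5 transposase inserts sequencing adaptors into open DNA. Fore- and hindlimb cells entered the same samples, so the values are averages over both limbs and over every cell type in the limb bud. Of the 4 samples, 2 were titled E10.5 and 2 were titled E11.5, while the treatment protocol calls the earlier stage E10. Each list joins the 2 replicates of its stage, so there is no spread between replicates, the sequencing depth is unknown, and each statement compares these lists. A region open in fewer cells and a region less open in each cell cannot be told apart in such bulk samples. Marker genes of limb mesenchyme, such as Prrx1, Twist1 and Hand2, were open at the promoter in 8 of 8 matched genes at E10.5 and in 7 of 8 at E11.5, where 68.2% and 62.8% of all protein-coding genes had a peak within 1 kb of a start site. Markers of other cell types with an E10.5 promoter peak were 4 of 4 for surface ectoderm, 2 of 3 for endothelium, 2 of 4 for blood, 3 of 4 for neurons and 1 of 1 for muscle precursors. At E11.5 the numbers were 3, 2, 3, 2 and 0, and the matched liver genes Alb and Afp had none at either stage. The part of these cells in the peaks of the interval was not tested.

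Prdm16 encodes a zinc finger transcription factor with a PR domain, and belongs to the PRDM family of chromatin regulators. It is known for directing cells to the brown fat fate and for maintaining blood and neural stem cells, and mouse mutants have defects of the palate. Arhgef16 encodes a guanine nucleotide exchange factor, a kind of protein that switches on small GTPases. Actrt2 encodes an actin-related protein of the male germ line. Long genes of developmental regulators often contain many enhancers, which are short stretches of DNA that bind transcription factors and lie open in cells that use them.

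The promoters of these genes differ in base composition, and their sequences are shown because an open region covers the start site in Prdm16 and Arhgef16 but not in Actrt2. Each run below holds the 250 bases before the RefSeq start site on GRCm38.p6, the assembly behind mm10, read 5′ to 3′ along the minus strand on which all 3 genes lie. Capitals mark matches, on either strand, to the GC box GGGCGG, the CCAAT box CCAAT, the TATA box TATAAA and the E box CACGTG. No matches overlap each other. The Prdm16 and Arhgef16 gene spans used below extend upstream of these start sites. The whole Prdm16 run and most of the Arhgef16 run therefore lie inside those spans.
Prdm16, chr4:154636874-154637123: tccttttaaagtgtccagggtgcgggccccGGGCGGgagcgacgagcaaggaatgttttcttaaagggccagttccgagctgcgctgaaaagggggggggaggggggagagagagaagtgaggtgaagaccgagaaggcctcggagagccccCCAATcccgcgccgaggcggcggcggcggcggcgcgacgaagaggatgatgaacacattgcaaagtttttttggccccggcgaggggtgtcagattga
Actrt2, chr4:154667868-154668117: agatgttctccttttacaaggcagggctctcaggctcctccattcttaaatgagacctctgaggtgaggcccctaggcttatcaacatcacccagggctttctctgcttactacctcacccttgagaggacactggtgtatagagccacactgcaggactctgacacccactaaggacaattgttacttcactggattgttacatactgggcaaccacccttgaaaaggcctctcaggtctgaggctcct
Arhgef16, chr4:154299896-154300145: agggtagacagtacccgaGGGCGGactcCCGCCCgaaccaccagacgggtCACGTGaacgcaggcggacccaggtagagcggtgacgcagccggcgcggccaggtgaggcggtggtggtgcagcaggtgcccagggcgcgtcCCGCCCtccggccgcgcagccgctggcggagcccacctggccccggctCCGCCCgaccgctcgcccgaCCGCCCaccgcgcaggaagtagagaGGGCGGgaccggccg

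The Prdm16 promoter held 1 GC box and 1 CCAAT box, 22 CpG dinucleotides and 62.4% G and C. The Arhgef16 promoter held 6 GC boxes and 1 E box, 34 CpG and 76.4% G and C. The Actrt2 promoter held none of the motifs and no CpG, at 50.4% G and C. Over the 32841 RefSeq promoters of this length without ambiguous bases, the median was 6 CpG and 52.4% G and C, so the Prdm16 and Arhgef16 promoters were CpG-rich and the Actrt2 promoter was not. A GC box stood in 32.7% of these promoters, a CCAAT box in 33.9%, an E box in 6.02% and a TATA box in 12.4%. These matches describe letters only.

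The Prdm16 start site lay in the strongest E10.5 peak of the interval. This peak, chr4:154632861-154644398, was 11538 bp wide and had a signal of 43956, which ranked it 14 among the 99427 peaks of its list. Ranks are given within a list, and since the lists differ in length, ranks in both do not show a change. The signal is the authors' value for a peak, and it grows with the peak's width. Counted per bp, the same peak had a signal of 3.81 and ranked 5440, and by −log10 p, at 12.9, it ranked 3235. It was therefore in the strongest decile of the list by all 3 measures, and its rank was highest by total signal. It ran across the Prdm16 start site into Prdm16os, a long noncoding RNA gene starting 0.707 kb upstream of that site on the opposite strand. The peak's summit lay 41 bp downstream of the Prdm16 start site.

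At E11.5 the Prdm16 start site was covered by a peak of 2527 bp, chr4:154635177-154637703. It had a signal of 3301, a −log10 p of 6.02 and a rank of 6255 among 37548. A second small E11.5 peak, chr4:154638384-154638726, with a signal of 215, lay within the same E10.5 peak on the Prdm16os side. Together they covered 24.9% of the E10.5 peak. The start site was thus in a peak of both lists, and the wide flanks of the E10.5 peak were not in the E11.5 list.

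Prdm16 spans 321 kb, chr4:154316122-154637360, on the minus strand. Over this span the E10.5 list had 97 peaks and the E11.5 list 10. The E10.5 peaks covered 196 kb, which is 61.1% of the gene span, and the E11.5 peaks covered 5.73 kb, or 1.78%. The ratio of covered lengths was 34.3 in Prdm16 and 10.8 in the interval, against 2.88 over chromosomes 1 to 19, X and Y. Exon and intron positions in mm10 were not used here, so peaks are placed by their distance from the start site.

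Inside Prdm16 the E10.5 peaks followed each other at a median gap of 524 bp. Of 96 gaps, 66 were under 1 kb and 5 were over 5 kb, and the largest, 9.21 kb, lay at chr4:154348956-154358160 toward the 3′ end of the gene. Peaks began 12.5 kb inside the 3′ end of the gene and continued to the start site. By contrast, the 10 E11.5 peaks were separated by a median of 29.0 kb.

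**Figure D1:**
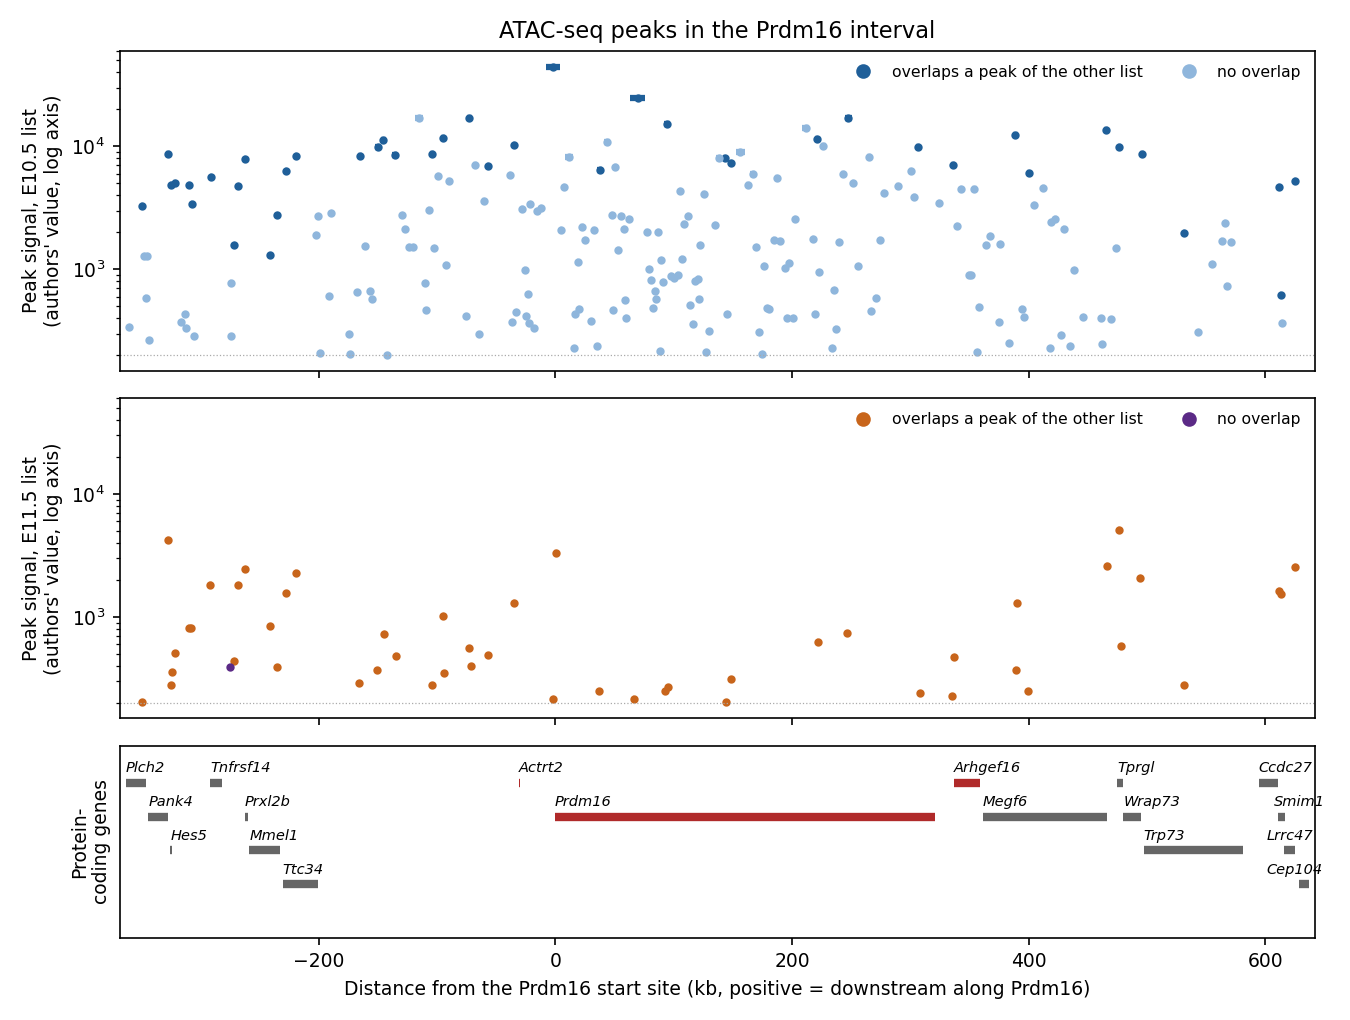
Signal of each peak (authors' value, log axis) by its distance in kb from the Prdm16 start site, with E10.5 peaks above, E11.5 peaks in the middle and protein-coding genes below. Horizontal marks show peak width where it exceeds the point, the dotted line stands at a signal of 200, and the 97 E10.5 peaks over Prdm16 face 10 E11.5 peaks.

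After the promoter peak, the strongest E10.5 peak of the interval was chr4:154561212-154573565, which was 12354 bp wide with a signal of 24981 and ranked 57. Its summit lay 66.3 kb downstream of the Prdm16 start site, within the gene. The only E11.5 peak in it, chr4:154570490-154571010, had a signal of 216 and covered 4.22% of it. Peaks of at least 10000 bp were rare, with 14 in the whole E10.5 list, and both in this interval touched Prdm16.

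Within the gene there were 2 further E10.5 peaks among the 10 strongest of the interval that overlapped an E11.5 peak. One, chr4:154386486-154392207, had a signal of 16937 (rank 283), and the other, chr4:154540359-154545357, had a signal of 15359 (rank 416). The E11.5 peaks inside the first had a signal of 746, and those inside the second had signals of 271 and 250. The E11.5 pieces again covered a small part of each, 9.72% and 17.6%.

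Prdm16 also contained strong E10.5 peaks with no E11.5 overlap. The strongest, chr4:154422240-154428651, lay 212 kb downstream of the start site, was 6412 bp wide and had a signal of 14016 (rank 584). It was followed by chr4:154590969-154596131 with a signal of 10842 (rank 1475), chr4:154408408-154412682 with 10007 (rank 1879) and chr4:154477016-154484428 with 8990 (rank 2657). Per bp these 4 peaks had signals of 2.19, 2.10, 2.34 and 1.21, so their high totals came with great width. Counted from the top of the E10.5 list, only 7 peaks without E11.5 overlap had been passed at rank 584 and 27 at rank 2657.

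The longest run of Prdm16 peaks without E11.5 overlap held 20 peaks over 66.8 kb, chr4:154417666-154484428. The 10 E11.5 peaks of the span fell into 9 E10.5 peaks, the weakest of which had an E10.5 signal of 6456. At or above that signal the span held 17 E10.5 peaks, and 8 of them had no E11.5 overlap. In order from the start site, the E11.5 peaks had signals of 3301 at the promoter, 250 at 36.8 kb, 216 at 66.0 kb, 250 at 93.1 kb, 271 at 95.1 kb, 204 at 144 kb, 315 at 149 kb, 631 at 222 kb, 746 at 246 kb and 239 at 308 kb. Among them, 6 had a signal between 204 and 271, close to the smallest value in that list, which is just above 200. Apart from the promoter, then, most Prdm16 peaks of the E11.5 list were weak, and the peak at 246 kb was near the list's median signal of 723. None of the 10 E11.5 peaks lay outside an E10.5 peak, where 0 of 10, by the limit of 3 counts over the total, still leaves room for a share of 30%.

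Without an E11.5 overlap were 88 of the 97 E10.5 peaks in Prdm16, which is 90.7% (95% Wilson interval 83.3 to 95%, counting error only). In the whole interval the number was 175 of 217, or 80.6% (74.9 to 85.3%). Over the whole E10.5 list the share was 67.7%, and the lists themselves led to the choice of the interval, so nothing is read from the gap. In the opposite direction, 1 of the 51 E11.5 peaks of the interval, 1.96% (0.347 to 10.3%), had no E10.5 overlap, against 8.44% of the E11.5 list. That peak, chr4:154911743-154912011, lay between the genes Prxl2b and Tnfrsf14, with a signal of 393 (rank 26210).

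The share without overlap depended on peak strength, and strength was distributed differently here than in the list. By total signal, 49 of the 217 interval peaks fell in the strongest decile of the list, and 18 of them (36.7%) had no E11.5 overlap, against 3.35% of that decile in the list. In Prdm16 the count was 13 of 22, or 59.1%. By signal per bp, 19 interval peaks were in the strongest decile and 2 lacked overlap, against 4.08% in the list, and 55 were in the weakest decile. The interval thus held many peaks of high total signal and also many of low signal per bp, which were for the most part different peaks.

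If each decile of the list is weighted by the number of interval peaks in it, the list's share without overlap was 54.6% by signal, 62.9% by −log10 p and 71.1% by signal per bp. The interval's own share, 80.6%, was above each of them. Weighted to the peaks of Prdm16 the list's shares were 56.1%, 71.2% and 78.6%, against 90.7% in the gene. The distance between the interval and the list was therefore smallest when peaks were compared by height rather than by total. The lists led to the choice of the interval, so these distances are descriptions only.

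**Figure D2:**
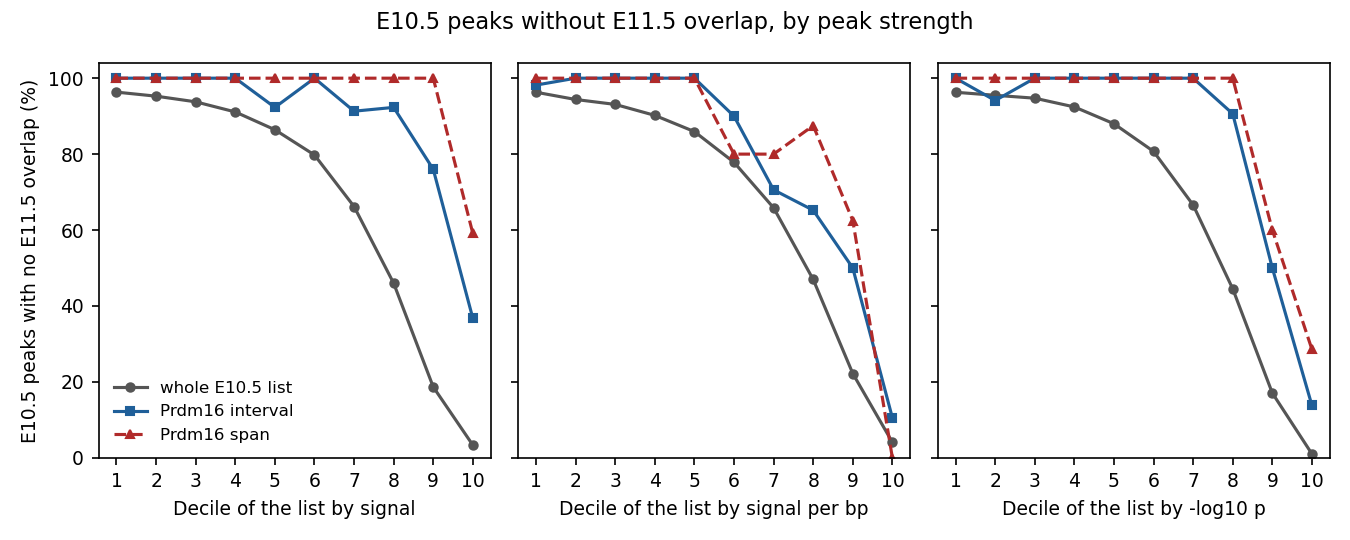
Percentage of E10.5 peaks with no E11.5 overlap in each decile of the E10.5 list (1 weakest, 10 strongest), ranked by signal, by signal per bp and by −log10 p, for the whole list, the interval and the Prdm16 span. In the strongest decile by signal the values are 3.35%, 36.7% and 59.1%, and by signal per bp the 3 lines lie closer together, with 0 of 3 Prdm16 peaks in the top decile lacking overlap.

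The E10.5 peaks of the interval were wide. Their median width was 1213 bp, and 1398 bp in Prdm16, against 624 bp in the list. Peaks of at least 2000 bp made up 28.1% of the interval's E10.5 peaks and 34.0% of those in Prdm16, against 6.49% of the list. Of the 61 such peaks in the interval, 34 had no E11.5 overlap, while 12.7% of such peaks in the list had none. The median signal per bp was 1.28 in the interval and 1.11 in Prdm16, against 1.48 in the list, and the median −log10 p was 5.49, 4.85 and 5.39.

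At E11.5 the peaks of the interval were narrow and weak. Their median width was 521 bp and their median signal 487, against 598 bp and 723 in the list, and in Prdm16 the medians were 396 bp and 261. Where an E10.5 peak of Prdm16 did overlap E11.5 peaks, a median of 9.72% of its width was covered by them. Over the 2137 overlapping E10.5 peaks of chromosome 4 the median was 61.5%. The overlapping E10.5 peaks of Prdm16 were 1927 to 12354 bp wide, and the comparison was not matched for width.

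Actrt2, a gene of 1.44 kb at chr4:154666428-154667867, had no peak over its span at either stage and none within 1 kb of its start site. The nearest E10.5 peak, chr4:154663625-154666157, ended 1.71 kb from the start site, beyond the 3′ end of the gene, and had a signal of 3110 (rank 17711) with no E11.5 overlap. The nearest E11.5 peak, chr4:154671301-154672347, lay 3.43 kb upstream of the start site. It had a signal of 1290 and fell in an E10.5 peak, chr4:154670783-154672546, of signal 10198 and −log10 p 14.0. That E10.5 peak was tall, ranking 382 by signal per bp.

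The many E10.5 peaks counted for Actrt2 were therefore neighbours. Within 100 kb of its start site there were 58 E10.5 and 11 E11.5 peaks, and 50 of the 58 (86.2%) had no E11.5 overlap. The Prdm16 start site is 31.0 kb away, and the 100 kb around it held 61 E10.5 peaks, 53 of them (86.9%) without overlap, many of which are the same peaks.

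Actrt2 sits in the 200 kb between the Prdm16 and Ttc34 spans, chr4:154637361-154837307, which holds no other protein-coding gene. With each peak placed by its summit, this stretch had 47 E10.5 peaks, or 23.5 per 100 kb, and 12 E11.5 peaks, or 6.0 per 100 kb. No E11.5 overlap was found for 38 of the 47 (80.9%, 67.5 to 89.6%). The strongest E10.5 peak of the interval without overlap was here, at chr4:154749055-154755179, 114 kb upstream of the Prdm16 start site. It was 6125 bp wide, had a signal of 17179 and ranked 263, and only 4 peaks of the list down to that rank lacked an E11.5 overlap.

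Next in this stretch came chr4:154707195-154711766, 73.0 kb upstream of the Prdm16 start site, with a signal of 16981 (rank 279), and chr4:154730004-154733379 with 11730 (rank 1134). Both contained 2 E11.5 peaks, with signals of 402 and 561 in the first and 351 and 1021 in the second. Of these 3 peaks, which are among the 10 strongest of the interval, 1 was missing from the E11.5 list. The others were present as narrower pieces. The peaks next in signal in this stretch, from 11281 down to 8369, each overlapped an E11.5 peak.

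Arhgef16 lies downstream of Prdm16, on the minus strand at chr4:154278469-154300107. Its start site was in an E10.5 peak of 3468 bp, chr4:154298789-154302256, with a signal of 7098 (rank 4950). At E11.5 the start site was in a peak of 506 bp, chr4:154299612-154300117, with a signal of 475 (rank 23533). A second E11.5 peak inside the same E10.5 peak, with a signal of 227, lay upstream of the gene. Both lists therefore had the Arhgef16 promoter.

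Over its 21.6 kb Arhgef16 had 8 E10.5 peaks and 1 E11.5 peak, and 7 of the 8 had no E11.5 overlap. The 2 strongest of these 7 had signals of 4530 and 4499. The peaks of Arhgef16 were wide and low, with a median of 0.897 signal per bp. Within 100 kb of the Arhgef16 start site 36 of 41 E10.5 peaks (87.8%) lacked overlap, and 7 E11.5 peaks were found. Only 8 of these 41 touched Arhgef16, and most of the others lay in Megf6 or in the 3′ part of Prdm16. The Arhgef16 start site is 337 kb from that of Prdm16. The stretches within 100 kb of each start site therefore share no peaks, though that of Arhgef16 reaches into the Prdm16 gene.

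Of the 18 protein-coding genes that overlap the interval, 16 have a start site in it in the RefSeq promoter table. At E10.5 13 of the 16 had a peak within 1 kb of a start site, and at E11.5 11 did. Over the 17492 protein-coding genes compared, 68.2% had such a peak in the E10.5 list and 62.8% in the E11.5 list. The 13 and 11 of 16 genes stand beside these shares, and no difference was tested. Without a promoter peak at either stage were Actrt2, Ccdc27 and Mmel1. Trp73, which encodes a relative of the tumour suppressor p53, and Ttc34 had one at E10.5 only, and the Trp73 start site shares its E10.5 peak, chr4:154139282-154143019, with the neighbouring Wrap73.

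The strongest E11.5 peaks of the interval were at promoters on its flanks. The first was at Tprgl, chr4:154159969-154161676, with a signal of 5117 (rank 2680), and its E10.5 counterpart had 9976 (rank 1896). The second was at Pank4, a gene of the pantothenate kinase family, with 4224 (rank 4109) at E11.5 and 8700 (rank 2922) at E10.5. The Prdm16 promoter followed, with 3301 at E11.5 and 43956 in the earlier list. The order of these 3 promoters was thus different in the lists, with Prdm16 ahead of Tprgl and Pank4 at E10.5 and behind both at E11.5, in values that carry no error and grow with width. By −log10 p Tprgl was ahead of Prdm16 in both lists, with 15.4 against 12.9 at E10.5 and 11 against 6.02 at E11.5. Pank4, with 12.3 and 9.21, was behind Prdm16 at E10.5 and ahead of it at E11.5. Counted per bp, Prdm16 had 3.81 at E10.5, beside 3.36 at Tprgl and 3.26 at Pank4. At E11.5 Prdm16 had 1.31 per bp, beside 3.0 at Tprgl and 2.76 at Pank4.

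Next among the 10 strongest E11.5 peaks were those at the promoters of Megf6 (2616), Lrrc47 (2558) and Prxl2b (2437). A peak within Ttc34 had a signal of 2270, Wrap73 had 2062, Tnfrsf14, which encodes a receptor of the tumour necrosis factor family, had 1828, and a peak between genes had 1822. All 10 overlapped an E10.5 peak. Megf6, whose protein carries EGF-like domains, also held the strongest E10.5 peaks outside Prdm16 and its upstream neighbour stretch, one at the promoter with a signal of 13663 (rank 646) and one in the gene, chr4:154246062-154250190, with 12486 (rank 904). Hes5, a transcriptional repressor and target of Notch signalling, had a promoter peak of 2438 bp with a signal of 4840 at the earlier stage. Inside it lay 2 E11.5 peaks, of 378 and 416 bp, with signals of 356 and 277.

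By gene, the most E10.5 peaks after Prdm16 were found in Megf6, with 22, of which 19 (86.4%) had no E11.5 overlap, beside 4 E11.5 peaks. Plch2, which encodes a phospholipase C and reaches beyond the interval, had 14 over its whole span, 11 of them without overlap, and 3 E11.5 peaks. Trp73 had 8, with 6 lacking overlap, and 1 E11.5 peak, and Ttc34 had 4, with 2 lacking overlap, and 2 E11.5 peaks. Each of the other protein-coding genes besides Arhgef16 had at most 3 E10.5 peaks, and Ccdc27, like Actrt2, had none. Among noncoding genes inside Prdm16, Gm13133 overlapped 6 E10.5 peaks and Gm52689 overlapped 3, all without an E11.5 overlap.

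The share without E11.5 overlap was lower at the ends of the interval than in Prdm16. From Ttc34 on, 13 of 27 E10.5 peaks (48.1%, 30.7 to 66.0%) lacked overlap, and 28 of 37 (75.7%, 59.9 to 86.6%) did on the far side from Lrrc47 to Megf6. In steps of 50 kb from the Prdm16 start site, the most E10.5 peaks, 20 per step, were found between 50 and 150 kb downstream, inside the gene, with 2 of the 20 overlapping in each of the 2 steps. The steps from 150 to 200 and from 250 to 300 kb downstream, also inside Prdm16, had 15 and 9 E10.5 peaks and no E11.5 peak.

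**Figure D3:**
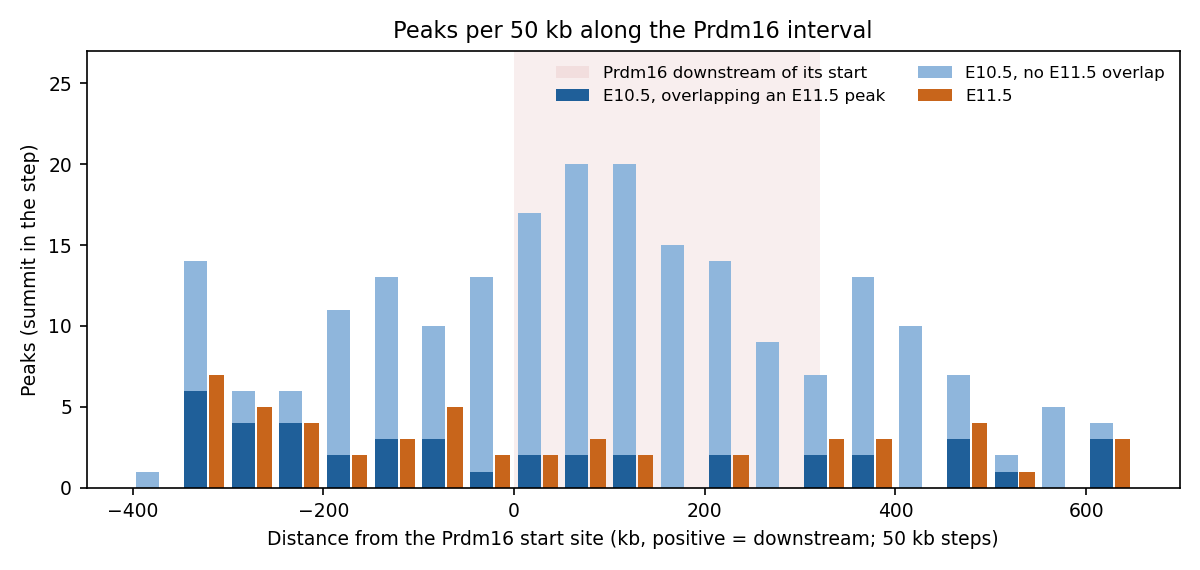
Number of peaks with a summit in each step of 50 kb along the interval, by distance in kb from the Prdm16 start site, for E10.5 peaks with and without E11.5 overlap (stacked) and E11.5 peaks; the shaded area is Prdm16. E10.5 peaks reach 20 per step within Prdm16, and E11.5 peaks reach 7 per step at most, at the end that holds Hes5 and Pank4.

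The interval was cut at round positions. The first E10.5 peak inside, at the Lrrc47 promoter, had a signal of 5267, and the nearest outside on that side, chr4:153975878-153976066, had 372. On the other side the last inside had 338 and the first outside, chr4:155012579-155013499, had 2177. The 1 Mb before the interval held 72 E10.5 peaks, of which 81.9% had no E11.5 overlap, and the 1 Mb after it held 109, of which 53.2% had none. The peak density was therefore highest in the interval, while the share without overlap was as high in the 1 Mb before it.

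Among 2518 bins of 1 Mb with a peak, the interval ranked 1 by E10.5 peaks, by E10.5 peaks without overlap and by length covered at E10.5. The median bin had 33 E10.5 peaks and 12 E11.5 peaks. By E11.5 peaks the interval ranked 40, so it was rich in peaks at both stages. Of the 130 bins with at least 100 E10.5 peaks, the median share without overlap was 76.0% and the range 35.1 to 94.6%, and the interval ranked 40 by this share. Among bins of such density its share without overlap was thus in the upper part of the range, and not at its end.

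The bins next in E10.5 peaks, named after their values were seen, were chr14:25000001-26000000 with 202 E10.5 and 30 E11.5 peaks, and chr8:120000001-121000000 with 199 and 53. The first holds Zmiz1, which encodes a transcriptional coregulator, and the second holds Gse1. Without overlap were 174 of 202 (86.1%) and 157 of 199 (78.9%), beside 80.6% in the Prdm16 interval. The bin of Cwc22, a splicing factor gene on chromosome 2, had 94 E10.5 and 14 E11.5 peaks, and 86.2% lacked overlap. Peaks of the Prdm16 interval were wider than in these bins, with a median of 1213 bp beside 968, 1085 and 758 bp, and their median signal per bp was 1.28, beside 1.17, 1.26 and 1.28. No test of these differences was possible.

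Of 2429 protein-coding genes that span at least 100 kb, Prdm16 ranked 3 by E10.5 peaks per 100 kb, with 30.2, after Zmiz1 with 35.4 and Ssbp3 with 30.4. It also ranked 3 by covered share at E10.5, after Zmiz1 with 66.9% and Gse1 with 62.7%. The medians over these genes were 4.15 E10.5 peaks and 1.24 E11.5 peaks per 100 kb and 2.72% covered. By E11.5 peaks per 100 kb, with 3.11, Prdm16 ranked 307. The plot of peak density by gene shows Prdm16 beside Ssbp3, far to the right, and above the median gene on the E11.5 axis.

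**Figure D4:**
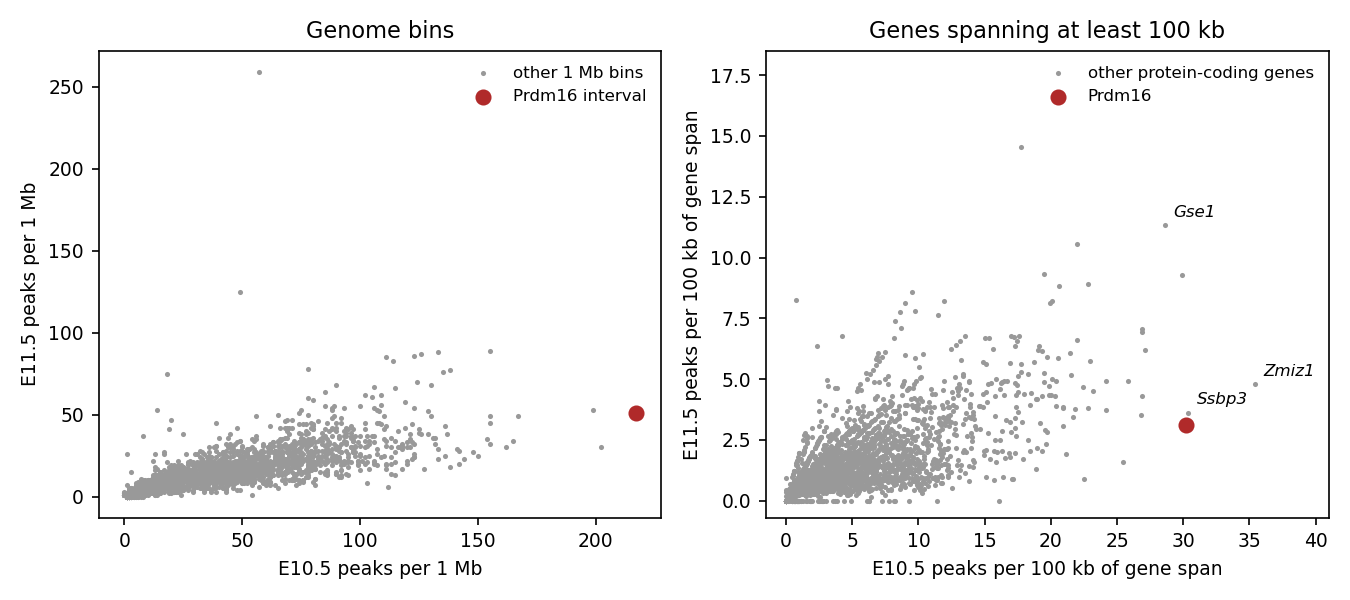
Left, E10.5 against E11.5 peaks in each 1 Mb bin, with the Prdm16 interval at 217 and 51. Right, E10.5 against E11.5 peaks per 100 kb of span for each protein-coding gene that spans at least 100 kb, with Prdm16 at 30.2 and 3.11, near Ssbp3.

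The genes most like Prdm16 were taken as those of at least 100 kb whose share without overlap was within 10 percentage points of its own, 662 genes, and whose E10.5 density was nearest. They were Ssbp3, which encodes a cofactor of LIM homeodomain complexes, with 30.4 E10.5 peaks per 100 kb and 90.5% without overlap, the chromatin architecture gene Hmga2 with 26.9 and 83.9%, and the zinc finger gene Glis1 with 26.9 and 87.5%. The nucleoredoxin gene Nxn had 26.8 and 84.2%, and Septin9, which encodes a cytoskeletal GTPase, had 25.8 and 83.3%. These are likenesses in 2 numbers from the same lists. Ssbp3 had 42 E10.5 peaks over 138 kb, so the 97 peaks of Prdm16 made it the longer stretch of such chromatin.

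In the PRDM family, Prdm16 had the most E10.5 peaks per 100 kb of the 15 genes examined. The median of the family was 9.90, and Prdm12, a short gene of sensory neurons with 6 peaks, came next with 28.9. Prdm8 with 5 peaks and Prdm14 with 3 followed, at 24.7 and 21.8 per 100 kb. Mecom, the closest relative of Prdm16, spans 558 kb and had 68 E10.5 peaks, or 12.2 per 100 kb, of which 60 (88.2%) had no E11.5 overlap. Prdm1, which encodes the repressor Blimp1, had 13 peaks, or 14.2 per 100 kb. The covered share of the span was 61.1% in Prdm16, 26.0% in Prdm12, 9.95% in Mecom and 8.93% in Prdm1. Of 11 family members in the promoter table, 10 had an E10.5 and 8 an E11.5 promoter peak, beside 68.2% and 62.8% of all protein-coding genes.

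Among 18 genes for known partners and targets of PRDM16, all 13 in the promoter table had an E10.5 promoter peak and 9 an E11.5 one, and the shares over all protein-coding genes were again 68.2% and 62.8%. Smad3, a mediator of TGF-beta signalling, had 25 E10.5 peaks and 1 E11.5 peak over its span, and 24 of the 25 (96.0%) had no overlap. Ski, a repressor that binds SMAD proteins, had 20 and 4, and the corepressor gene Ctbp2 had 26 and 3. Among the 18 genes the share without overlap ran from 0%, as in Ehmt1 and Med1 with 1 peak each, to 100%, as in Cidea with 3 peaks. Over the whole E10.5 list it was 67.7%. Ucp1, the brown fat uncoupling protein gene, had 1 E10.5 peak with a signal of 904, near the list's median of 838, and no E11.5 peak. Pparg, the master regulator gene of fat cells, had 1 peak at each stage, over 130 kb.

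The counts depend on how the lists are made comparable. When the E10.5 list was reduced to its 37548 peaks of highest signal, the number of E11.5 peaks, 121 E10.5 peaks remained in the interval and 51 in Prdm16. Of these, 66.1% and 82.4% had no E11.5 overlap, while the share over the reduced list was 31.2%. The same reduction by −log10 p kept 92 and 30, with 55.4% and 70.0% lacking overlap, against 29.9% of the list.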

How the data were processed

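ATAC-seq was made from fixed, lysed limb cells with a Nextera Tn5 kit, per the labels' protocols, in 2 samples titled E10.5 and 2 titled E11.5. The submitters' processing notes name cutadapt, Bowtie2, SAMtools, deepTools, Genrich and the build mm10; roles, versions, filters and any Tn5 shift are not given in the sources used here. The deposited files are 2 narrowPeak lists on mm10, per the file headers, 1 for both replicates of a stage. The deposited signal is the authors' value per peak. The deposited −log10 p is the authors' peak p-value. The deposited score equals signal per bp times 1000, capped, in 100% of peaks within 1 unit, and was not used. The deposited q-value column is a placeholder throughout and was not used.

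Peaks overlapping by at least 1 bp were called overlapping. Ranks run over each whole list. Gene spans and start sites came from RefSeq tables of GRCm38.p6, and promoter strand was checked against GENCODE transcripts. The genome supplied was another build (NCBIM37) and was not used. Shares carry 95% Wilson intervals, and for a count of 0 the upper limit given is 3 counts over the total. Named were the members, the genes overlapping the interval, the 10 strongest peaks per stage, the 5 strongest E10.5 and all E11.5 peaks without overlap, peaks at member start sites, and the 5 genes most like Prdm16; other peaks and bins were named after their values were seen. The members and gene lists were chosen with earlier results of these data known. Alternatives were thresholds, list lengths, overlap and placing rules, promoter windows and a shifted grid. The overlap code was tested on simulated data. Python 3.11.15, NumPy 2.4.6, pandas 2.3.3, SciPy 1.17.1 and Matplotlib 3.10.9 were used.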

Additional observations from a re-analysis of the deposited data

How the results depend on the processing

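No paired analysis was possible because a stage has 1 list made from both replicates, which also means that leaving out a replicate could not be tried. The unknown depth limits every comparison of peak numbers. Over 10 alternative settings, 26 of 48 values kept to their criterion (1.5 times for a count or rank, the 95% interval for a share) and 22 moved. The interval ranked 1 among 1 Mb bins by E10.5 peaks with each cut of the lists by −log10 p, by signal or to matched number. With the grid shifted by 500 kb, its unshifted count was set against the shifted bins, so no rank on that grid is given. That value is still counted among the 26 that kept to their criterion. The promoter counts stayed at 13 and 11 with a window of 500 bp.

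Fewer peaks, by construction, were left with −log10 p of at least 5, namely 122 E10.5 and 21 E11.5 peaks in the interval and 47 and 1 in Prdm16. In Prdm16 97.9% of these E10.5 peaks lacked overlap, against 67.6% of the list cut in the same way. With a signal of at least 500, 25 E11.5 peaks were left in the interval and 3 in Prdm16. Then 95.9% of E10.5 peaks of Prdm16 lacked overlap, against 68.9% of the list. Of the E11.5 peaks of the interval 0% did, where 0 of 25 allows up to 12%. At matched number by signal there were 121 E10.5 peaks in the interval and 51 in Prdm16, with 66.1% and 82.4% lacking overlap, against 31.2% of the list. At matched number by −log10 p there were 92 and 30, with 55.4% and 70% lacking overlap, against 29.9% of the list. A reciprocal overlap of 50% left 94.5% of E10.5 and 76.5% of E11.5 peaks of the interval and 100% of E10.5 peaks of Prdm16 without overlap. For this and the following overlap rules no share over the whole list was computed, so these values cannot be set against it. With summits within 100 bp 35.3% of E11.5 peaks lacked overlap, and with peaks within 1 kb counted as overlapping 0% did, which allows up to 5.88%.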
